A study of Mus musculus with 6 samples.

Results

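Oxidative phosphorylation is carried out by 5 protein complexes of the inner mitochondrial membrane. The genes described here are those of the nuclear-encoded subunits, chosen by symbol alone: Ndufa, Ndufb, Ndufc, Ndufs and Ndufv with any ending, Sdha to Sdhd, Uqcr with any ending, Cox4 to Cox8 with a suffix, and Atp5 with any ending. In all, 89 of 19938 measured genes matched. They were 34 genes of complex I, 4 of complex II, 8 of complex III, 19 of complex IV, 17 of complex V, and 7 genes named Ndufaf, which code for assembly factors of complex I and not for subunits. Ndufa4 and Ndufa4l2 were counted with complex IV, where the Ndufa4 protein is found.

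The cells came from the bone marrow of 3 MYB knockdown mice and 3 wild type mice, all C57BL6 males of 4 weeks, and passed a gate abbreviated K11bL: they carried Kit and CD11b and had low lineage staining. Kit binds stem cell factor, CD11b is an integrin of myeloid cells, and the study's title calls the cells myeloproliferative. Myb is a transcription factor of blood progenitors. The labels do not say how its expression was lowered, in which cells, or which lineage markers the gate used. RNA of each mouse was measured on 1 Affymetrix array, and every value below is a log2 intensity of 1 probe set.

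Complex I takes electrons from NADH and complex II from succinate, both pass them through ubiquinone to complex III, and cytochrome c carries them on to complex IV, which reduces oxygen. Complexes I, III and IV pump protons, and complex V, the ATP synthase, uses the gradient to make ATP. Stem cells of the marrow are known to rely largely on glycolysis, and mitochondrial respiration is known to gain weight as progenitors differentiate.

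Myb was lower in each knockdown mouse, with 11.26, 11.08 and 11.14 in knockdown mice 1, 2 and 3, against 11.47, 11.46 and 11.46 in wild type mice 1, 2 and 3. The difference was -0.30 ± 0.06 (SE), with an adjusted p of 0.0196 by limma over all genes. That call was not kept without knockdown mouse 2 or without any 1 wild type mouse (adjusted p between 0.0777 and 0.0963), after median centring (0.074) or in the fit without trend (0.0662). Array medians lay between 5.87 and 5.99. The array of knockdown mouse 3 was unlike the rest: its correlations were 0.977 with mouse 1 and 0.984 with mouse 2 of its group, while those mice correlated at 0.994. Among the tested members, 6 (6.9%) lay more than 0.5 above the mean of knockdown mice 1 and 2 in mouse 3, beside 5.6% of all genes tested, and 8 (9.2%) lay more than 0.5 below it, beside 10.4%. No member differed by that much between knockdown mice 1 and 2. For members named below that mouse 3 moves most, the difference without it is given as well. Of the sort markers, Kit had 10.22, 10.21 and 10.24 in knockdown mice, against 10.38, 10.53 and 10.58 in wild type mice (adjusted p = 0.06, limma). Itgam, which codes for CD11b, had 9.85, 9.43 and 9.07 in knockdown mice, against 9.81, 9.90 and 9.82 in wild type mice (adjusted p = 0.202, limma). Both lay above the array medians in all 6 samples.

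Most members of the 5 complexes differed little between knockdown and wild type. Of the 89, 87 passed the filter on dim genes and were tested. The fit called 5 of them higher (5.75%): Cox4i2, Ndufaf4, Uqcr10, Sdhb and Cox4i1. The same rule called 6.12% of all 13956 genes higher, so the share among the members lay near the background. Limma called 0 members lower, against 5.48% of all genes. At an unadjusted p under 0.05, 23 members (26.4%) were higher, against 15.0% of all genes, and 1 member, the assembly factor Ndufaf3, was lower, against 10.6% of all genes.

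The differences were small and mostly of 1 sign. The median over all 89 members was 0.114 on the log2 scale, beside 0.017 over all genes tested, and 72 of the 89 lay above 0. Of the 87 tested, 71 lay above 0 (81.6%), beside 53.6% of all genes tested. All 3 knockdown values lay above all 3 wild type values for 32 tested members (36.8%), where this held for 19.9% of all genes. All 3 lay below for 1 tested member, where this held for 14.4% of all genes. A change of at least 1.5-fold was seen upward for 3 tested members (3.45%), Cox4i2, Cox6a2 and Ndufaf4, beside 3.37% of all genes tested, and downward for 0, beside 4.01%. The medians of the members' differences from the wild type mean were 0.13, 0.17 and 0.09 in knockdown mice 1, 2 and 3. Without wild type mouse 2 the median was 0.083. In that mouse 61 of the 87 tested members had their lowest wild type value (70.1%), beside 35.7% of all genes tested.

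The number of members that passed the test depended on knockdown mouse 3. Without it, 23 members rose (26.4% of 87), where 17.2% of all genes rose, and 2 members fell, Ndufaf3 and Cox6b2, where 10.0% of all genes fell. Without knockdown mouse 2, 2 members rose (2.3%), where 3.09% of all genes rose. Without wild type mouse 1, 2 or 3 the number was 1, 1 and 2 (1.15%, 1.15% and 2.3%). In those fits 2.12%, 2.19% and 2.54% of all genes rose. After median centring of the arrays 11 rose (12.6%), where 10.3% of all genes rose. Fits without 1 mouse rest on fewer samples.

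**Figure D1:**
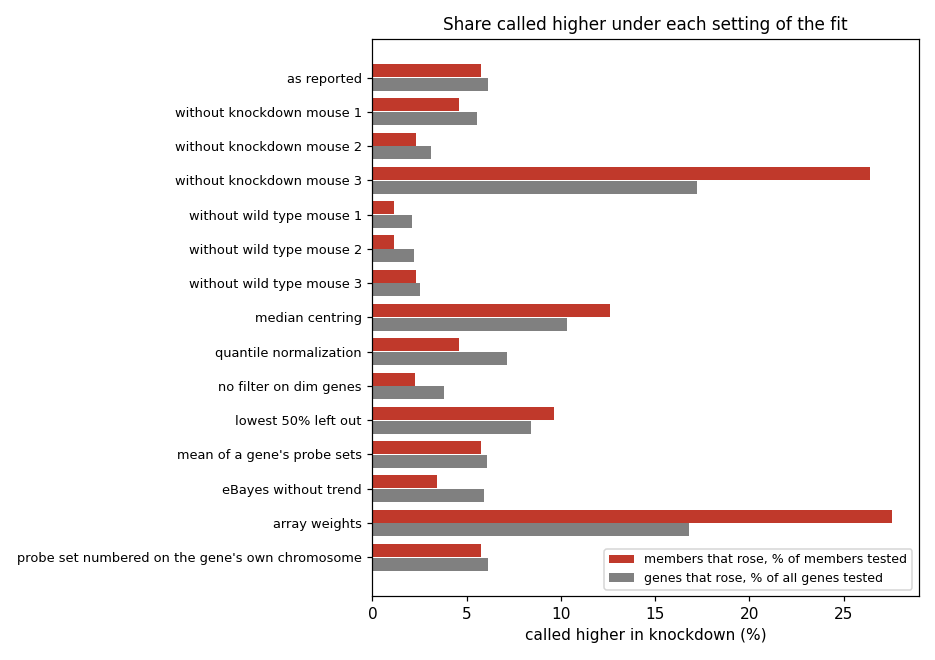
Share called higher in knockdown (percent, horizontal axis) under each of 15 settings of the fit (rows): members that rose as a percentage of members tested, and all genes that rose as a percentage of all genes tested. With all 6 arrays the shares were 5.75% and 6.12%, and without knockdown mouse 3 they were 26.4% and 17.2%.

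Cox4i2 had the largest difference of the 89 members. It codes for an isoform of subunit 4 of complex IV that is best known from the lung and is induced by low oxygen. Its values were 7.58, 7.99 and 8.11 in knockdown mice 1, 2 and 3, against 6.76, 6.94 and 6.94 in wild type mice. The lowest knockdown mouse lay above the highest wild type mouse. Cox4i2 averaged 7.89 ± 0.28 in knockdown and 6.88 ± 0.10 in wild type (SD, n = 3 mice each), a rise by 1.01 ± 0.15 (SE) or 2.01-fold (adjusted p = 0.00366, limma). It was called under all 15 alternative settings, with differences between 0.90 and 1.17 and adjusted p between 3.13e-05 and 0.0282.

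Cox4i1, the widely expressed isoform of the same subunit, also rose. Its values were 9.84, 9.91 and 9.87 in knockdown mice, against 9.55, 9.47 and 9.64 in wild type mice, and the groups did not overlap. The rise was 0.32 ± 0.08 (SE) or 1.25-fold (adjusted p = 0.0423, limma). The call was kept under 7 of 15 alternatives and lost under 8, among them each fit without 1 mouse other than knockdown mouse 3, with adjusted p of up to 0.189.

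Ndufaf4, an assembly factor of complex I, had 8.15, 8.21 and 7.91 in knockdown mice, against 7.50, 7.37 and 7.52 in wild type mice. All 3 knockdown mice lay above the wild type, with mouse 3 the lowest of them. The rise was 0.63 ± 0.11 (SE) or 1.54-fold (adjusted p = 0.0104, limma), called under 13 of 15 alternatives and lost without wild type mouse 1 (adjusted p = 0.0533) or 2 (0.0659).

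Uqcr10, a small subunit of complex III, had 8.44, 8.65 and 8.89 in knockdown mice, against 8.25, 7.97 and 8.17 in wild type mice. Here mouse 3 was the highest, and the groups did not overlap. Uqcr10 rose by 0.53 ± 0.14 (SE) or 1.44-fold (adjusted p = 0.0431, limma). The call was lost under 7 of 15 alternatives, among them the fits without knockdown mouse 2 or any 1 wild type mouse (adjusted p between 0.107 and 0.186).

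Sdhb, the iron-sulfur subunit of complex II that hands electrons from the flavoprotein to ubiquinone, had 9.82, 10.03 and 9.73 in knockdown mice, against 9.38, 9.57 and 9.47 in wild type mice. The groups did not overlap, and mouse 3 was the closest to the wild type. The rise was 0.39 ± 0.10 (SE) or 1.31-fold, with an adjusted p of 0.0496 by limma, just under the threshold of 0.05. It was lost under 8 of 15 alternatives, among them each fit without 1 mouse other than knockdown mouse 3 (adjusted p between 0.0765 and 0.204). Just outside the threshold lay Atp5g3 (adjusted p = 0.0555), Ndufv1 (0.0576) and Ndufs3 (0.0589).

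**Figure D2:**
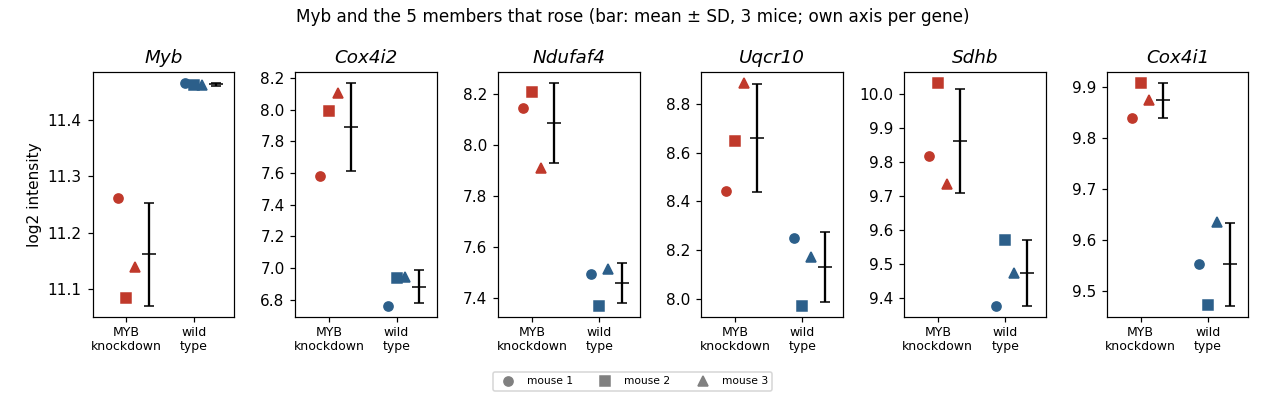
Log2 intensity (vertical axis, own scale per gene) of Myb and of the 5 members that rose, in MYB knockdown mice (left) and wild type mice (right). Symbols are single mice and bars are the mean ± SD of 3 mice. All 3 knockdown mice lie below the wild type for Myb and above it for the other 5 genes, with the widest gap for Cox4i2.

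The bases before the start sites of Ndufaf4, Sdhb and Uqcr10 are shown because these members rose. Cox4i1 and Cox4i2 also rose but matched no window among the promoters used. The sequences are from RefSeq for GRCm38.p6 and run 5′ to 3′ on the gene's strand, with the last base just before the annotated start. They are chr4:24897833-24898082 on the plus strand for Ndufaf4, chr4:140961021-140961270 on the plus strand for Sdhb, and chr11:4704345-4704594 on the minus strand for Uqcr10. Capitals mark matches to any of 3 short motifs of factors known to act on respiratory genes: CATGCGC for NRF1, CCGGAAG for ETS factors such as GABP, and ATGGCGG for YY1, each on either strand.
Ndufaf4: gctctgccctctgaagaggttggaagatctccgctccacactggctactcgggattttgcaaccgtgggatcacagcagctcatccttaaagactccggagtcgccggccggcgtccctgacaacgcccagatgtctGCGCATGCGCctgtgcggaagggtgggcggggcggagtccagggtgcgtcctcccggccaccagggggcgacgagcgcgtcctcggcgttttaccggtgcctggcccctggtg
Sdhb: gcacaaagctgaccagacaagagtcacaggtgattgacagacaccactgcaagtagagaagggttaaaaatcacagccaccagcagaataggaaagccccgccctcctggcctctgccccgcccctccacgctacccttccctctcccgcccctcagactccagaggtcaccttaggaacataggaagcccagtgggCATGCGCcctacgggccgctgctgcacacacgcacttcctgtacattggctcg
Uqcr10: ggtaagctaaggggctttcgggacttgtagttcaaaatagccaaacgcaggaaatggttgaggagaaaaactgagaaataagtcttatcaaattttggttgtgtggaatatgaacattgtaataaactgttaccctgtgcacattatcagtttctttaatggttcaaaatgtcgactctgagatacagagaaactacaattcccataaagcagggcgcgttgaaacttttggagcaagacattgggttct
Ndufaf4 held the NRF1 letters on both strands in 1 overlapping stretch, beginning at positions -113 and -110, and again on the minus strand from position 2, where position 1 is the start and -1 the base before it. Sdhb held them once, from position -53, and held the ETS letters from position 7. Uqcr10 held none of the 3 motifs in this window, which says nothing of the factors themselves. The matches after the start lie outside the bases shown.

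The same letters were common among the members as a whole. Of the members, 73 matched the promoter table, with 78 windows from 250 bases before to 50 bases after a start. The NRF1 letters were in 15 of these windows (19.2%), beside 1284 of all 32851 windows of the table (3.91%). The ETS letters were in 18 (23.1%), beside 8.86% of all windows, and the YY1 letters in 12 (15.4%), beside 4.05%. At least 1 of the 3 was in 38 of the members' windows (48.7%), beside 15% of all. A match is a stretch of letters and not a site that was shown to be bound.

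Limma called no change in the transcripts of NRF1, YY1 or the chains of GABP, and other ETS factors were not looked at here. NRF1's gene Nrf1 had 8.46, 8.36 and 8.22 in knockdown mice, against 8.27, 8.32 and 8.39 in wild type mice (difference 0.02, adjusted p = 0.936, limma), and the groups overlapped. Gabpa, the DNA-binding chain of GABP, differed by -0.03 (adjusted p = 0.918) and Yy1 by -0.01 (adjusted p = 0.975). Gabpb2, a gene for the other chain of GABP, had 9.13, 9.12 and 8.66 in knockdown mice, against 9.22, 9.21 and 9.27 in wild type mice, so that all 3 knockdown mice lay below the wild type (difference -0.26 ± 0.14 SE, adjusted p = 0.284). Gabpb1, another such gene, differed by 0.01 (adjusted p = 0.979). Of 9 measured regulators of respiratory genes, 8 were tested and limma called 0. At an unadjusted p under 0.05, where 15.0% of all genes tested were higher and 10.6% lower, 1 regulator passed. That was Pprc1, a coactivator related to PGC-1α, with 7.70, 7.93 and 8.35 in knockdown mice, against 7.35, 7.24 and 7.52 in wild type mice (difference 0.62 ± 0.17 SE, adjusted p = 0.0513). Ppargc1b, another coactivator of the family, differed by 0.25 (adjusted p = 0.393), and Esrra, a nuclear receptor partner, by less than 0.01 (adjusted p = 0.989). Ppargc1a was among the dim genes left out of the test.

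Complex I is the largest complex, with a peripheral arm that oxidises NADH and a membrane arm that pumps protons. Of its 34 members limma called 0. At an unadjusted p under 0.05, 7 were higher and 0 lower, where 15.0% of all genes tested were higher and 10.6% lower. The median difference was 0.106 over a range from -0.32 to 0.46, and 28 of 34 lay above 0, beside 53.6% of all genes tested. The groups did not overlap for 13, each higher in knockdown, where this held for 19.9% of all genes tested. These shares of all genes also apply to the counts of the other complexes below, as do the 6.12% that rose and 5.48% that fell.

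In the peripheral arm, Ndufv1, which binds NADH and the flavin, had 9.58, 9.66 and 9.63 in knockdown mice, against 9.35, 9.34 and 9.34 in wild type mice. The difference of 0.28 ± 0.08 (SE) was alike in all 3 knockdown mice. Ndufs3, a core subunit nearer to the quinone site, had 9.80, 9.89 and 9.84 in knockdown mice, against 9.59, 9.45 and 9.59 in wild type mice, a difference of 0.30 ± 0.08. Neither passed the adjusted test on all arrays, and both did without knockdown mouse 3 (adjusted p = 0.00724 for Ndufv1 and 0.0116 for Ndufs3).

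Further core subunits of that arm differed less. Ndufs8, an iron-sulfur subunit, differed by 0.21 (adjusted p = 0.267) and Ndufs7, another, by 0.11 (adjusted p = 0.285). Ndufv2, an iron-sulfur partner of Ndufv1, differed by 0.04 (adjusted p = 0.837).

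Ndufs1, the largest iron-sulfur subunit of the arm, split the knockdown mice. It had 9.56, 9.49 and 8.79 in knockdown mice 1, 2 and 3, against 9.32, 9.16 and 9.29 in wild type mice, so that mice 1 and 2 lay above all wild type mice and mouse 3 below them. The difference was 0.02 on all arrays (adjusted p = 0.969) and 0.27 without mouse 3 (adjusted p = 0.0199, limma). The accessory subunit Ndufs6 had 9.22, 9.29 and 8.34 in knockdown mice, against 9.28, 8.93 and 9.17 in wild type mice. Its mouse 3 value lay 0.92 below the mean of mice 1 and 2, the widest such gap downward among the members, and its difference was -0.18 on all arrays and 0.13 without mouse 3 (adjusted p = 0.357).

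Among the accessory subunits, Ndufa11, of the membrane arm, had 9.48, 9.61 and 9.84 in knockdown mice, against 9.29, 9.31 and 9.22 in wild type mice (difference 0.37 ± 0.11 SE, adjusted p = 0.067, limma). The probe set used for Ndufa11 is numbered among genes of another chromosome, and the one numbered on its own chromosome gave a difference of 0.19. Ndufb8, also of the membrane arm, had 9.07, 9.08 and 9.33 in knockdown mice, against 8.87, 8.65 and 8.88 in wild type mice (difference 0.36 ± 0.12 SE, adjusted p = 0.0846). For both genes each knockdown mouse lay above each wild type mouse, and both were called without mouse 3 (0.27, adjusted p = 0.0161 for Ndufa11, and 0.28, adjusted p = 0.0345 for Ndufb8). Ndufab1, the mitochondrial acyl carrier protein that is also a subunit, differed by 0.27 on all arrays (adjusted p = 0.12) and 0.30 without mouse 3 (adjusted p = 0.0174). Ndufa9, near the quinone site, differed by 0.25 (adjusted p = 0.18) and Ndufb9, of the membrane arm, by 0.22 (adjusted p = 0.105).

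Ndufa7 had the widest difference of complex I, and mouse 3 carried most of it. Its values were 8.0, 8.21 and 8.92 in knockdown mice, against 7.93, 7.85 and 7.95 in wild type mice (difference 0.46 ± 0.21 SE, adjusted p = 0.221). Without mouse 3 the difference was 0.19 (adjusted p = 0.132), less than those of Ndufab1, Ndufs3 and Ndufv1 in that fit. Ndufb6, a membrane arm subunit, went the other way in mouse 3, with 11.01, 11.11 and 10.18 in knockdown mice, against 10.89, 10.43 and 10.88 in wild type mice. Its difference was 0.03 on all arrays (adjusted p = 0.965) and 0.33 without mouse 3 (adjusted p = 0.0861). Ndufa1, a small membrane subunit, had 7.89, 7.98 and 7.26 in knockdown mice, against 8.27, 7.86 and 7.94 in wild type mice, and its difference of -0.32 ± 0.20 (SE) was the lowest of complex I (adjusted p = 0.387), with -0.09 without mouse 3 (adjusted p = 0.605). Ndufa13, known also for a role in cell death, was nearly level at 9.30, 9.32 and 9.28 in knockdown mice, against 9.29, 9.27 and 9.30 in wild type mice. Ndufb2, the dimmest member of complex I, differed by -0.14 (adjusted p = 0.619). The smallest family, Ndufc, differed by 0.10 for Ndufc1 and 0.08 for Ndufc2, with overlapping groups.

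By family, the median differences of complex I were 0.176 over 13 Ndufa genes, 0.088 over 9 Ndufb genes, 0.114 over 7 Ndufs genes and 0.036 over 3 Ndufv genes. Ndufb4 shared its probe sets with Ndufb4b and was not counted. The dimmer of those 2 probe sets lay between 10.83 and 11.20 in knockdown mice and between 10.64 and 10.81 in wild type mice. The brighter lay between 11.03 and 11.43 in knockdown mice and between 10.87 and 11.01 in wild type mice. In each the groups did not overlap, with knockdown higher.

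**Figure D3:**
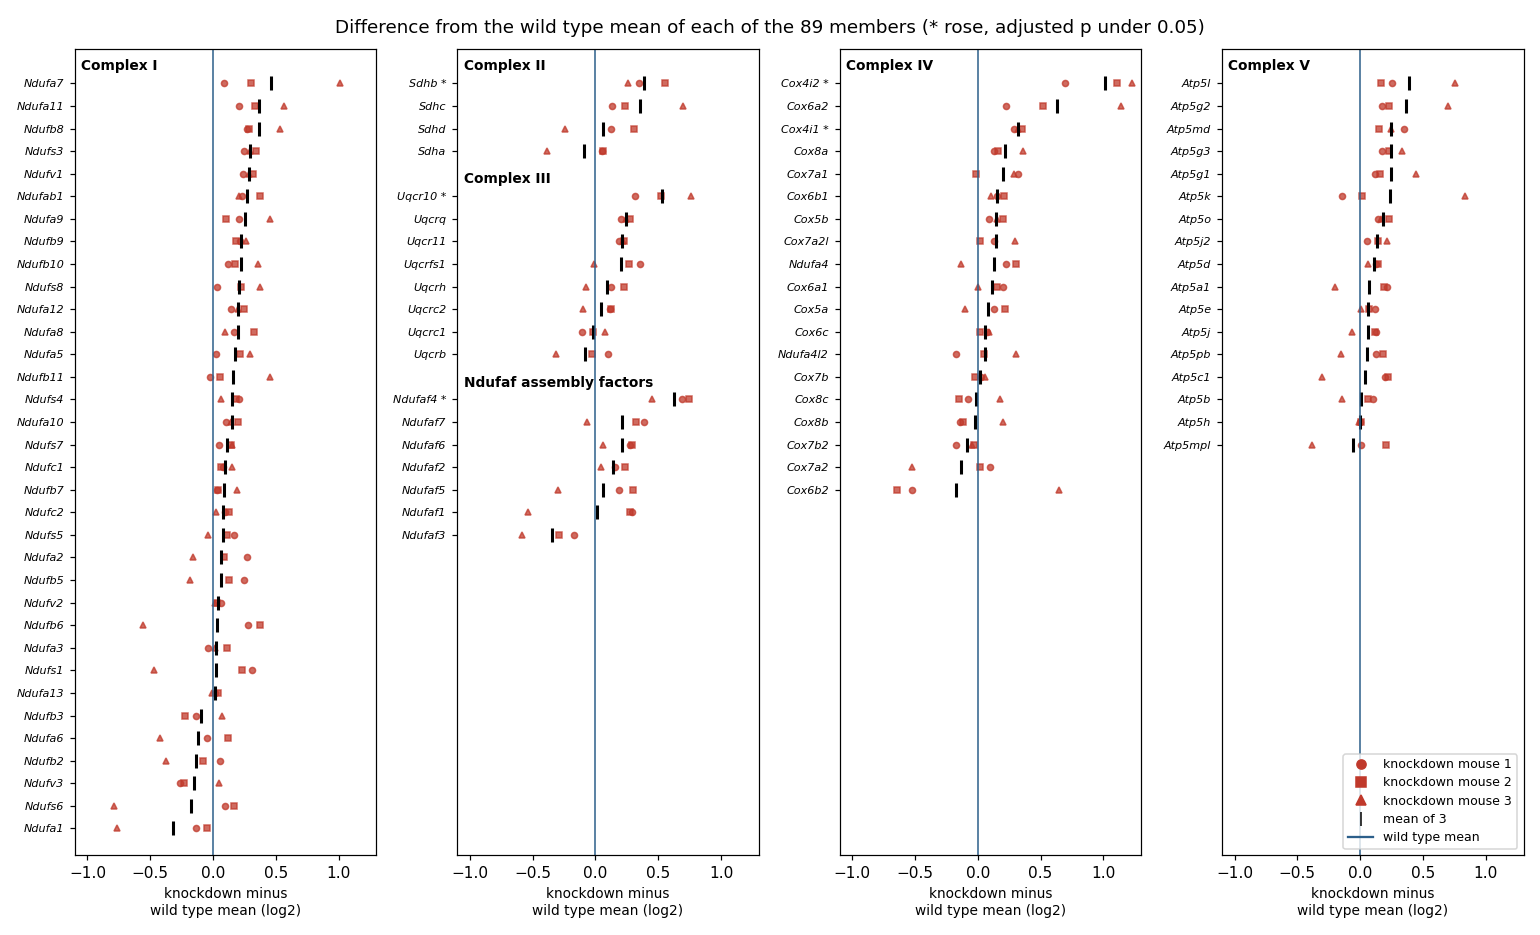
Difference of each knockdown mouse from the wild type mean (log2, horizontal axis) for the 89 members, by complex and in order of the mean difference. Symbols are knockdown mice 1, 2 and 3, black bars are their mean, and the line at 0 is the wild type mean. Stars mark the 5 members that rose. Most means lie between 0 and 0.4, and mouse 3 lies more than 0.5 above the mean of mice 1 and 2 for 6 tested members and more than 0.5 below it for 8.

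Of the 7 Ndufaf assembly factors of complex I, 6 differed upward and only Ndufaf3 downward, with a median difference of 0.143. Beside Ndufaf4, which rose, Ndufaf3 had 9.09, 8.96 and 8.67 in knockdown mice, against 9.29, 9.23 and 9.24 in wild type mice. It was the only tested member whose 3 knockdown values all lay below the wild type, and its difference of -0.35 ± 0.12 (SE) did not pass the test (adjusted p = 0.105, limma). It was called without knockdown mouse 3 (-0.23, adjusted p = 0.028). Ndufaf1 had 8.77, 8.76 and 7.94 in knockdown mice, against 8.69, 8.14 and 8.61 in wild type mice, with mouse 3 the lowest of all 6. Its difference was 0.01 on all arrays (adjusted p = 0.99) and 0.28 without mouse 3 (adjusted p = 0.178). Ndufaf2, Ndufaf5, Ndufaf6 and Ndufaf7 differed by 0.14, 0.06, 0.21 and 0.21. Without mouse 3 the difference was 0.24 for Ndufaf5, which was not called, and 0.35 for Ndufaf7, which was called higher.

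Complex II, which is also an enzyme of the citric acid cycle, has 4 genes, all tested. Of these 1 rose, Sdhb, beside 6.12% of all genes tested. Sdhc, 1 of the membrane anchors, had 10.13, 10.24 and 10.70 in knockdown mice, against 10.01, 9.96 and 10.04 in wild type mice (difference 0.35 ± 0.14 SE, adjusted p = 0.156, limma). Each knockdown mouse lay above each wild type mouse, mouse 3 farthest, and without mouse 3 the difference was 0.18 and was called (adjusted p = 0.0498). Sdhd, the other anchor, differed by 0.06 (adjusted p = 0.847), and its mouse 3 value of 9.72 lay under the other knockdown values of 10.08 and 10.26. Without mouse 3 the difference of Sdhd was 0.22 (adjusted p = 0.1). Sdha, the flavoprotein that oxidises succinate, had 10.63, 10.64 and 10.20 in knockdown mice, against 10.62, 10.57 and 10.56 in wild type mice (difference -0.09, adjusted p = 0.719, and 0.06 without mouse 3, adjusted p = 0.457).

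Of 8 genes of complex III 1 rose, Uqcr10, and limma called 0 lower, beside 6.12% and 5.48% of all genes tested. At an unadjusted p under 0.05, 0 were lower, beside 10.6%. The median difference was 0.149. Uqcrq, a small ubiquinone-binding subunit, had 9.38, 9.45 and 9.42 in knockdown mice, against 9.24, 9.10 and 9.19 in wild type mice (difference 0.24 ± 0.09 SE, adjusted p = 0.122). Uqcr11 differed by 0.21 (adjusted p = 0.197). For both the groups did not overlap. The core proteins Uqcrc1 and Uqcrc2 differed by -0.02 and 0.05 (adjusted p = 0.924 and 0.774), and Uqcrh, the hinge protein, by 0.09 (adjusted p = 0.619). Uqcrfs1, the Rieske iron-sulfur protein, had 7.99, 7.91 and 7.63 in knockdown mice, against 7.64, 7.62 and 7.65 in wild type mice. Its mouse 3 value lay within the wild type range, and the difference of 0.20 on all arrays (adjusted p = 0.336) was 0.31 without mouse 3 (adjusted p = 0.0129, limma). Cyc1, the cytochrome c1 subunit, falls outside the symbols chosen. It rose by 0.30 ± 0.07 (SE), with 10.56, 10.66 and 10.58 in knockdown mice, against 10.32, 10.22 and 10.34 in wild type mice (adjusted p = 0.0328).

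Complex IV has isoforms that replace each other by tissue, and its 19 genes include several of these. Of them 17 were tested, 2 rose, Cox4i2 and Cox4i1, and limma called 0 lower, beside 6.12% and 5.48% of all genes tested. At an unadjusted p under 0.05, 0 were lower, beside 10.6%. The median difference over the 19 was 0.115. Cox6a2, the heart and muscle isoform of subunit 6a, had 6.92, 7.21 and 7.83 in knockdown mice, against 6.38, 6.78 and 6.92 in wild type mice. The groups overlapped at about 6.92, and the difference of 0.63 ± 0.24 (SE) did not pass the test (adjusted p = 0.135, limma). Without mouse 3 it was 0.37 (adjusted p = 0.118). Cox6a1, its widely expressed partner, differed by 0.12 (adjusted p = 0.469).

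Cox6b2, the testis isoform of subunit 6b, had 6.95, 6.84 and 8.12 in knockdown mice, against 7.42, 7.54 and 7.48 in wild type mice. Mice 1 and 2 lay under the wild type and mouse 3 above it by a gap of 1.22 to the mean of mice 1 and 2, the widest such gap among the members. The difference was -0.17 on all arrays (adjusted p = 0.791) and -0.58 without mouse 3 (adjusted p = 0.00112). Cox6b1, the widely expressed isoform, had 10.85, 10.90 and 10.80 in knockdown mice, against 10.67, 10.72 and 10.70 in wild type mice (difference 0.15 ± 0.06 SE, adjusted p = 0.181), without overlap.

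Cox7a1, the muscle isoform of subunit 7a, and Cox7b2, a testis isoform, were among the dim genes and were not tested. Cox7a2, the widely expressed isoform, differed by -0.14 (adjusted p = 0.669), and by 0.06 without mouse 3 (adjusted p = 0.552), with mouse 3 at 9.56 and the other 5 mice between 9.99 and 10.18. Cox7a2l, a relative known for a role in supercomplexes, differed by 0.15 (adjusted p = 0.473). Cox8b and Cox8c, restricted isoforms of subunit 8, both differed by -0.02, while Cox8a had 11.23, 11.26 and 11.46 in knockdown mice, against 11.09, 11.03 and 11.17 in wild type mice (difference 0.22 ± 0.08 SE, adjusted p = 0.123). Ndufa4 differed by 0.13 (adjusted p = 0.627) and Ndufa4l2, a relative induced by low oxygen as Cox4i2 is, by 0.06 (adjusted p = 0.85). The subunits Cox5a, Cox5b, Cox6c and Cox7b differed by 0.08, 0.15, 0.06 and 0.02. Cox7c shared its 3 probe sets with a further symbol and was not counted.

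**Figure D4:**
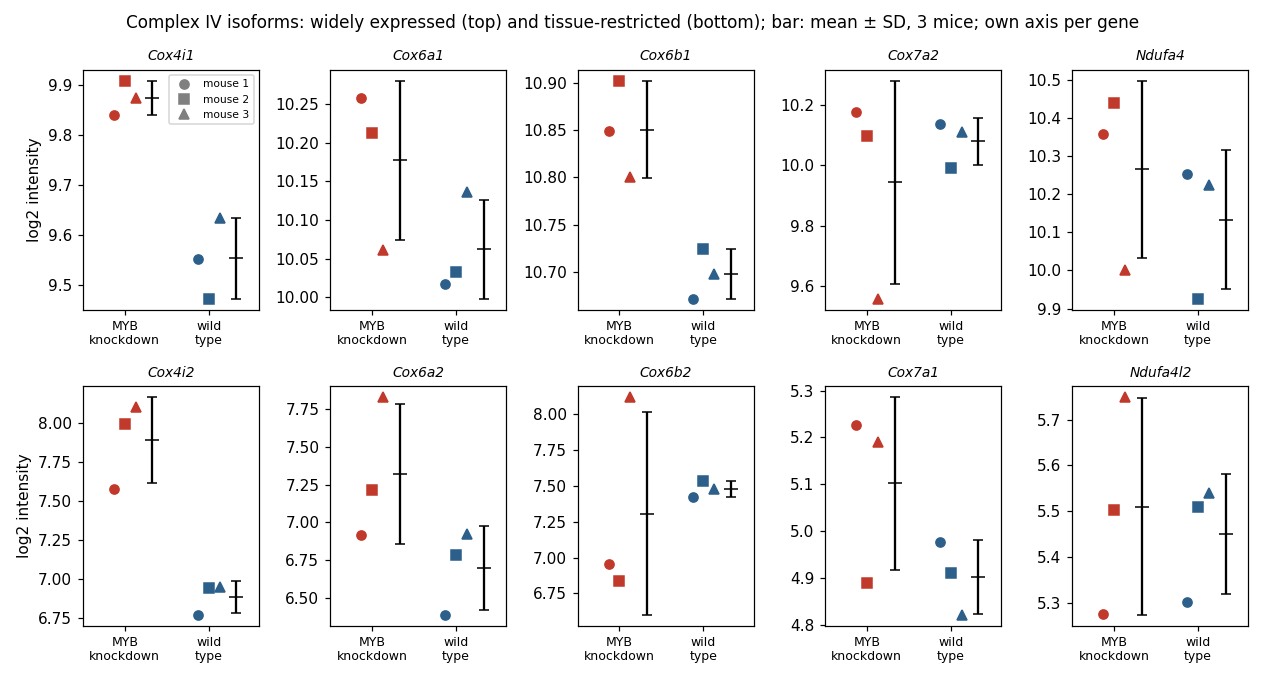
Log2 intensity (vertical axis, own scale per gene) of 5 widely expressed complex IV genes (top) and their tissue-restricted relatives (bottom), in MYB knockdown mice (left in each panel) and wild type mice (right). Symbols are single mice and bars are the mean ± SD of 3 mice. Both Cox4 isoforms are higher in knockdown without overlap, and mouse 3 is the highest knockdown mouse for Cox6a2 and Cox6b2.

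Of 17 genes of complex V limma called 0. At an unadjusted p under 0.05, 6 were higher and 0 lower, beside 15.0% and 10.6% of all genes tested. The median difference was 0.108. The groups did not overlap for 8 of the 17, each higher in knockdown, where this held for 19.9% of all genes tested. The 3 genes for the c subunit, which forms the rotating ring in the membrane, were each higher in every knockdown mouse than in any wild type mouse. Atp5g3 had 11.30, 11.36 and 11.46 in knockdown mice, against 11.07, 11.20 and 11.13 in wild type mice (difference 0.24 ± 0.07 SE, adjusted p = 0.0555). Atp5g2 had 11.46, 11.51 and 11.98 in knockdown mice, against 11.26, 11.26 and 11.34 in wild type mice (difference 0.37 ± 0.13, adjusted p = 0.106). Atp5g1 had 11.54, 11.58 and 11.86 in knockdown mice, against 11.40, 11.41 and 11.44 in wild type mice (difference 0.24 ± 0.09, adjusted p = 0.122). The mature protein made from these 3 genes is the same, and whether their probes separate the transcripts was not tested. Without mouse 3 the differences were 0.14 for Atp5g1 (adjusted p = 0.0555), 0.20 for Atp5g2 (0.0177) and 0.20 for Atp5g3 (0.0278).

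In the catalytic head and central stalk the groups overlapped on all arrays for Atp5a1, Atp5b, Atp5c1 and Atp5e. For Atp5d, the delta subunit of that stalk, they did not overlap, with knockdown higher by 0.11 (adjusted p = 0.245, limma). Atp5e, the epsilon subunit, differed by 0.07 (adjusted p = 0.772). Atp5b, the catalytic beta subunit, had 12.08, 12.05 and 11.84 in knockdown mice, against 12.00, 11.97 and 11.98 in wild type mice (difference 0.01, adjusted p = 0.97, limma, and 0.08 without mouse 3, adjusted p = 0.205). Atp5a1, the alpha subunit, had 11.80, 11.78 and 11.39 in knockdown mice, against 11.62, 11.54 and 11.61 in wild type mice. Its difference was 0.07 on all arrays (adjusted p = 0.77) and 0.20 without mouse 3 (adjusted p = 0.0142). Atp5c1, the gamma subunit of the central stalk, differed by 0.04 (adjusted p = 0.905), and by 0.21 without mouse 3 (adjusted p = 0.0192). For Atp5a1, Atp5b and Atp5c1 mouse 3 had the lowest value of the 6 mice, and without it Atp5a1 and Atp5c1 differed by about as much as the c subunit genes. The difference between these parts of the enzyme was not tested.

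Among the other parts of the enzyme, Atp5o, which links head and outer stalk, differed by 0.18 (adjusted p = 0.169). Atp5l, a subunit of the membrane part, had 8.92, 8.83 and 9.42 in knockdown mice, against 8.79, 8.58 and 8.62 in wild type mice (difference 0.39 ± 0.16 SE, adjusted p = 0.166, and 0.21 without mouse 3, adjusted p = 0.085). Atp5k, another, had 7.65, 7.81 and 8.63 in knockdown mice, against 7.76, 7.84 and 7.80 in wild type mice, so that only mouse 3 lay above the wild type range. Its difference was 0.23 on all arrays (adjusted p = 0.607) and -0.07 without mouse 3 (adjusted p = 0.583). Atp5md, a small subunit of dimers, differed by 0.25 (adjusted p = 0.169), and Atp5h, of the outer stalk, by less than 0.01 (adjusted p = 0.999).

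The other genes of the pathway gave few calls as well. Over all genes tested, 6.12% rose and 5.48% fell, and at an unadjusted p under 0.05 the shares were 15.0% and 10.6%. Of 2 subunits encoded in the mitochondrial genome with a probe set, COX2 of complex IV had 11.90, 11.80 and 11.94 in knockdown mice, against 12.02, 11.89 and 11.95 in wild type mice, and ND3 of complex I had 11.64, 11.49 and 11.48 in knockdown mice, against 11.68, 11.47 and 11.65 in wild type mice. Both differed by -0.07 with overlapping groups. Of 9 assembly genes of complex I outside the chosen symbols 1 rose, Ecsit, with 7.79, 7.92 and 7.78 in knockdown mice, against 7.21, 7.19 and 7.21 in wild type mice (0.62 ± 0.10 SE, adjusted p = 0.00456, limma). Ecsit is also known as an adaptor of innate immune signalling.

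Of 4 assembly genes of complex II 1 rose, Sdhaf1, by 0.45 ± 0.11 (SE; adjusted p = 0.0341). Of 6 for complex III 2 rose: Uqcc2 by 0.48 ± 0.09 (adjusted p = 0.0102) and Bcs1l, which inserts the Rieske protein, by 0.36 ± 0.10 (adjusted p = 0.0487). Limma called 0 of 20 for complex IV, where Cox19, a copper chaperone, was nearest (0.40, adjusted p = 0.0592). Of those 20, 5 were higher and 0 lower at an unadjusted p under 0.05, beside 15.0% and 10.6% of all genes tested. For complex V limma called 0 of 4, and 0 passed unadjusted. Of 4 adenine nucleotide and phosphate carriers 3 were tested and 1 rose, Slc25a4, an ADP/ATP carrier, by 0.62 ± 0.16 (adjusted p = 0.0403). Of 4 genes of cytochrome c, cytochrome c1 and their maturation 3 were tested. Of these 1 rose, Cyc1, the complex III subunit described above. Cycs, cytochrome c, differed by 0.06 (adjusted p = 0.682). Of 12 genes of coenzyme Q synthesis limma called 0, with 1 higher and 1 lower at an unadjusted p under 0.05 (Coq4 at 0.44 and Pdss2 at -0.35, adjusted p = 0.12 and 0.0987). Of 11 genes that copy or transcribe mitochondrial DNA 1 fell, Polg, the DNA polymerase, with 7.76, 7.66 and 7.64 in knockdown mice, against 8.15, 8.30 and 8.16 in wild type mice (-0.52 ± 0.10 SE, adjusted p = 0.0136). Tfam, its packaging factor, differed by 0.17 (adjusted p = 0.673). The 2 uncoupling proteins measured were too dim to be tested.

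Markers of other cell types moved between the same samples, and in bulk RNA fewer cells of a type and less RNA per cell cannot be told apart. Beside the counts that follow, 6.12% of all genes tested rose and 5.48% fell. Of 6 megakaryocyte markers 5 rose, and their summed level lay between 11.47 and 11.69 in knockdown mice and between 10.07 and 10.18 in wild type mice (log2 of summed intensities). All 5 primary granule markers fell, with summed levels between 13.02 and 13.10 in knockdown mice and between 14.39 and 14.56 in wild type mice. Of 10 mature neutrophil markers 4 fell (13.17 to 13.89 in knockdown, against 14.57 to 14.74 in wild type), of 7 eosinophil markers 5 fell (9.12 to 10.00 in knockdown, against 12.02 to 12.28 in wild type), and of 6 basophil and mast cell markers 4 fell and 1 rose (11.08 to 11.42 in knockdown, against 12.41 to 12.87 in wild type). Of 7 B lymphoid markers 3 fell (10.12 to 10.16 in knockdown, against 10.47 to 10.88 in wild type). Of 9 erythroid markers 1 rose, and their sums overlapped, with the highest in knockdown mouse 3 (12.28 to 13.13 in knockdown, against 12.43 to 12.77 in wild type). Of 7 monocyte and macrophage markers 2 rose and 1 fell (12.03 to 12.17 in knockdown, against 12.11 to 12.32 in wild type), and of 5 T and NK markers 1 rose (7.81 to 7.99 in knockdown, against 7.36 to 7.64 in wild type). Cd79a, Cd3d and Cd3g were among the dim genes. The part of these shifts in the members' differences was not tested.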

How the data were processed

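Total RNA from sorted marrow cells of 3 MYB knockdown and 3 wild type mice was measured on 6 Affymetrix arrays. The table deposited by the authors holds log2 intensities per probe set, a scale read from the values. The submitters' processing notes name limma and the Affymetrix Expression Console, without their roles. How background and normalization were handled is not given in the labels. Arrays have no read depth: their number limits the precision, and bright probe sets may compress differences. No batch is named.

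Of 35556 probe sets, 21789 had 1 symbol in the platform annotation (21698 matched to RefSeq by gene number), 1621 had more than 1, and 12146 had no entry there. Each of 19938 genes is represented by its brightest probe set, by the mean over the 6 arrays. Genes in the lowest 30% by that mean were left out, which left 13956. Knockdown was compared with wild type in limma 3.58.1 (R 4.3.3; lmFit, eBayes with trend, no covariates), two-sided, with Benjamini-Hochberg adjustment over all genes tested and a threshold of 0.05. "Rose", "fell" and "called" refer to that test, and every adjusted p comes from it or the stated alternative. The fit was also run on simulated data with the same spread in both groups. In the real data the median SD over all genes tested was 0.171 in knockdown and 0.079 in wild type mice. The simulation therefore cannot show how the fit handles that inequality.

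Members, gene lists and tests were chosen with earlier results of these data known. The genes named were Myb, the called members, the 6 of smallest p, the brightest and the dimmest of each complex, core subunits and isoforms, and the leading genes of each further list. Others were named after their values were seen. Promoter sequences are RefSeq's for GRCm38.p6. Each sample is labelled as a mouse of its own.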

Additional observations from a re-analysis of the deposited data

How the results depend on the processing

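The settings tried were a replicate block, fits that each omit 1 array, median centring, quantile normalization, no filter or a filter at 50%, averaged probe sets, a fit without trend, array weights, an adjusted p of 0.1, subunits only, and, chosen after seeing the data, the probe set numbered on the gene's own chromosome. The number of members that rose was 5 as reported (5.75%, beside 6.12% of all genes tested). It was 4 with the replicate block (4.6%, beside 5.35%) and 11 after median centring (12.6%, beside 10.3%). With no filter it was 2 (2.25%, beside 3.8%), and with a filter at 50% it was 8 (9.64%, beside 8.43%). Without trend it was 3 (3.45%, beside 5.93%), and with array weights 24 (27.6%, beside 16.8%). With 1 array left out it lay between 1 and 23 (1.15% to 26.4%, beside 2.12% to 17.2%). At an adjusted p of 0.1 it was 10, and the share of all genes was not counted there. The number that fell, 0 as reported, was 1 after quantile normalization (beside 5.92% of all genes tested) and 2 with array weights (beside 11.2%). With 1 array left out it lay between 0 and 2 (beside 2.63% to 10.0%). Array weights gave knockdown mouse 3 the lowest weight, 0.13, and wild type mouse 3 the highest, 5.12, with the rest between 0.67 and 1.57. Their estimation stopped before full convergence. Over all genes, 854 rises and 765 falls became 1433 rises and 593 falls after median centring, 2351 rises and 1561 falls with array weights, and between 296 and 2397 rises and between 367 and 1397 falls with 1 array left out. The median over the members, 0.114, was 0.189 after median centring and between 0.083 and 0.154 with 1 array left out. By complex, median centring gave 0.181 for complex I, 0.190 for complex IV and 0.183 for complex V, array weights gave 0.139 for complex I, and with 1 array left out complex I lay between 0.072 and 0.143, complex II between 0.121 and 0.241 (0.209 as reported), complex III between 0.099 and 0.193 (0.149 as reported, 0.234 with array weights), and the assembly factors between 0.053 and 0.281 (0.143 as reported). The medians of all groups stayed above 0 in each of these settings. After median centring the median of all 19938 genes was 0.081, against 0.006 before it. After quantile normalization it was 0.057, beside 0.105 over the members, so the members lay closer to all genes. In that setting 4.6% of tested members rose, beside 7.14% of all genes tested. Of 1316 recomputed values of Myb and single members, 54 gained and 31 lost a call, 57 values of 29 genes changed sign without a call, and 0 called values changed sign. The causes were not tested. Mice of both groups share the numbers 1, 2 and 3 only: deviations of same-numbered mice from their group means correlated at 0.25, -0.15 and -0.10, and mice 2 and 3 did not correlate best with their own number. With the replicate block 746 genes rose and 726 fell, and the 4 members that rose were Atp5g2, Cox4i2, Cox6a2 and Ndufaf4.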

Other observations

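Probe sets of this array are numbered along the chromosomes, and for 9 of the 89 members the brightest probe set, which was used, is numbered among genes of another chromosome than the member's own (10.1%, beside 1.63% of all genes used). These were Atp5g2, Atp5l, Atp5md, Atp5pb, Cox6c, Cox7a2l, Cox7b, Ndufa11 and Ndufb11, and none of them rose or fell. A second probe set on the gene's own chromosome gave a difference of 0.20 for Cox7b, beside 0.02 for the one used, 0.19 for Ndufa11, beside 0.37, and 0.16 for Atp5pb, beside 0.05. The values for Ndufb11 were 0.17 and 0.16. Atp5l has 6 probe sets with differences between 0.28 and 0.44, all higher in knockdown. The members that rose each had 1 probe set, numbered on the gene's own chromosome, and with own-chromosome probe sets throughout the same 5 members rose.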
